A study of Bos taurus and Bos indicus with 12 samples.

Results

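PGLYRP1, peptidoglycan recognition protein 1, was read by 1 of the 24016 non-control probe sets of an Affymetrix bovine expression array, and is 1 of 9155 genes that the platform annotation names there by a single symbol. It was taken by that symbol, and it came to attention because its signal was much lower in tick-infested than in tick-naive skin of both breeds. The infested-minus-naive differences below therefore describe how the gene was chosen and carry no test. Whole-skin punch biopsies, 8 mm wide and 10 mm deep, came from 12 female cattle, and each animal's RNA went to its own array. The groups were 3 infested Brahman animals aged 6 months, 3 naive Brahman animals aged 18 months, 3 infested Holstein-Friesian animals aged 6 months and 3 naive Holstein-Friesian animals aged 12 months. Infested animals had been through repeated heavy exposure to the cattle tick Rhipicephalus microplus, and their biopsies were cut where larvae had attached. Naive animals had never met this tick. Infestation and age cannot be told apart within a breed, and the naive breeds also differed in age. Brahman is a zebu breed known for resistance to this tick, and Holstein-Friesian is a taurine dairy breed known for susceptibility.

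PGLYRP1 is a small secreted protein of innate immunity that binds peptidoglycan, the polymer of the bacterial cell wall. In cattle it is known as a bactericidal protein stored in the granules of neutrophils and eosinophils, and in human cells it also acts as a ligand of the receptor TREM1. Its relatives are PGLYRP2, a serum enzyme that cleaves peptidoglycan, and PGLYRP3 and PGLYRP4, which are made by epithelia. No probe set was named for PGLYRP2, PGLYRP3 or PGLYRP4 here, so nothing can be said of them.

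The arrays read as skin throughout. On the log2 scale the keratin genes KRT5, KRT14 and KRT10 lay at 13.75 to 14.11, 14.22 to 14.67 and 14.05 to 14.35, and the dermal gene COL1A1 lay at 13.08 to 14.75. RNA integrity was not even. An index of the 5' minus 3' signal of 5 control transcripts, in which lower values mean weaker 5' signal, was -4.91, -2.56 and -2.07 in infested Brahman and -1.04, -0.85 and -0.92 in naive Brahman skin. It was -2.73, -0.75 and -1.23 in infested Holstein-Friesian and -1.39, -0.82 and -1.17 in naive Holstein-Friesian skin. Infested Brahman skin thus held the array with the lowest index and lay below naive Brahman skin throughout.

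In naive skin PGLYRP1 was among the brightest signals on the array. In infested skin it was near the middle in Brahman and above the middle in Holstein-Friesian animals. PGLYRP1 read 6.94, 6.31 and 6.08 log2 in infested Brahman skin, against 12.91, 10.94 and 11.98 log2 in naive Brahman skin. It read 7.97, 8.33 and 7.36 log2 in infested Holstein-Friesian skin, against 13.73, 13.39 and 13.83 log2 in naive Holstein-Friesian skin. Every naive array was above every infested array, and the lowest naive and the highest infested array were 2.61 log2 apart. That was the widest such gap of all 24016 probe sets, of which 1574, or 6.55%, had all naive arrays above all infested ones.

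**Figure D1:**
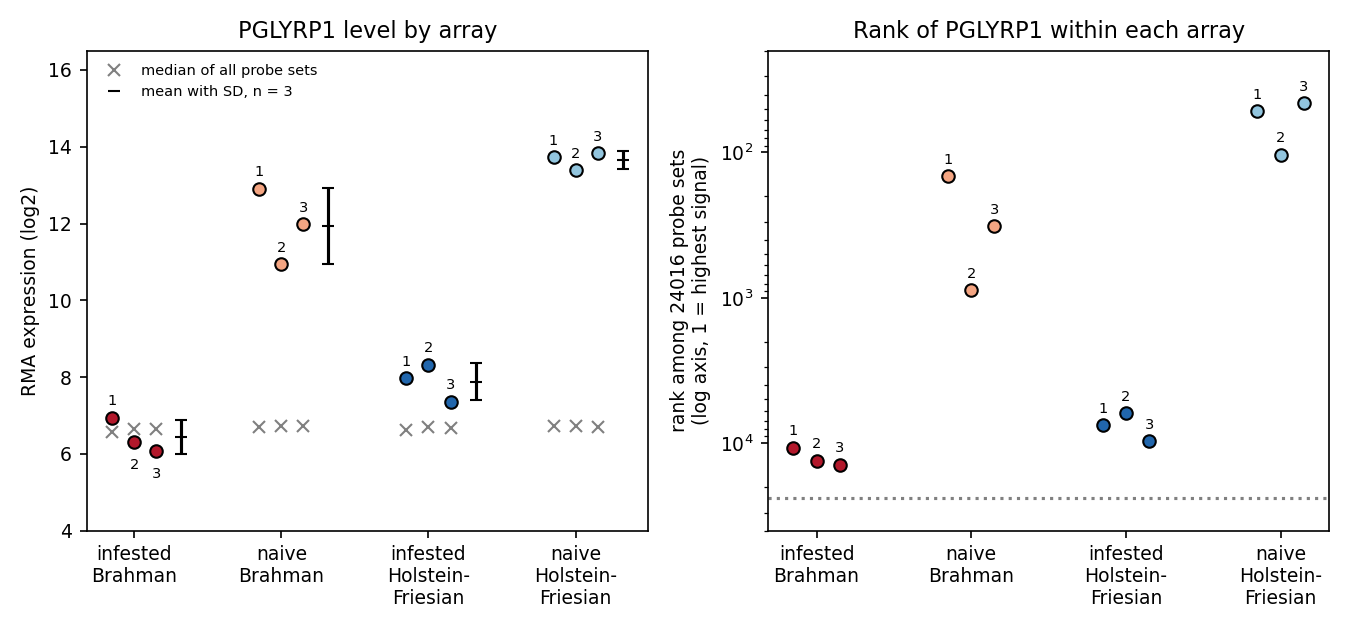
Left, RMA expression of PGLYRP1 (log2) in each array by group, with group means and SD (bars, n = 3) and the median of all probe sets on the same array (crosses). Right, the rank of PGLYRP1 within each array on a log axis, 1 being the highest signal, with the number of probe sets as the dotted line. All 6 naive arrays lie within the top 885 ranks, and all 6 infested arrays lie at rank 6235 or lower down, within 2 log2 of the array median.

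The rank within the array does not depend on scaling between arrays. PGLYRP1 ranked 10750th, 13244th and 14064th of 24016 in infested Brahman skin, against 146th, 885th and 321st in naive Brahman skin. It ranked 7510th, 6235th and 9672nd in infested Holstein-Friesian skin, against 52nd, 104th and 46th in naive Holstein-Friesian skin. In infested Brahman skin 41.4% to 55.2% of probe sets read lower than PGLYRP1, so that it sat at the array's middle, whereas 96.3% to 99.4% read lower in naive Brahman skin. The shares in Holstein-Friesian skin were 59.7% to 74.0% when infested and 99.6% to 99.8% when naive. Probe sets differ in affinity, so a rank describes signal and not a number of transcripts.

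A signal near the array's middle need not mean that transcript was present. Among the probe sets of 3 genes of the Y chromosome, which these female animals lack, TSPY read 7.64 to 8.23 log2 and ZFY read 3.13 to 3.35 log2 over the 12 arrays. The infested levels of PGLYRP1 lay between the readings of ZFY and TSPY or just above them. Detection calls were not used here, so how much of the infested signal was PGLYRP1 transcript is unknown, and a fold change computed from it can be too small.

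The mean level was 6.45 ± 0.45 log2 in infested and 11.94 ± 0.99 log2 in naive Brahman skin (SD, n = 3 each). The difference was -5.50 log2, or 45.2-fold lower, with a 95% interval of -6.45 to -4.54. In Holstein-Friesian skin the mean was 7.88 ± 0.49 log2 when infested and 13.65 ± 0.23 log2 when naive (SD, n = 3 each). The difference was -5.77 log2, or 54.5-fold lower, with a 95% interval of -6.72 to -4.81. PGLYRP1 had the largest fall of all probe sets in Holstein-Friesian and the next to largest in Brahman skin, and the largest when probe sets were ordered by the smaller of their falls in both breeds. Groups that did not overlap, with the infested arrays lower, were found for 19.3% of probe sets in Brahman and 16% in Holstein-Friesian skin. In whole skin, fewer cells that carry a transcript and less transcript per cell cannot be told apart.

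The difference was as large when the RNA index was taken into account. With the index as a covariate it was -6.00 log2 in Brahman and -5.87 log2 in Holstein-Friesian skin. Without the 2 arrays of lowest index, infested Brahman 1 and infested Holstein-Friesian 1, it was -5.75 and -5.81 log2. Leaving out any 1 array gave -6.00 to -5.01 log2 in Brahman skin, and -5.99 to -5.50 log2 in Holstein-Friesian skin. The Brahman change minus the Holstein-Friesian change was 0.27 log2, with a 95% interval of -1.08 to 1.62. Its sign was not stable, since it was -0.14 log2 with the index as a covariate and -0.24 log2 without naive Brahman 2.

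Brahman skin read lower than Holstein-Friesian skin in both states, and this breed contrast was not used to choose the gene. Among naive animals the highest Brahman array, 12.91 log2, was below the lowest Holstein-Friesian array, 13.39 log2. The difference was -1.71 log2, or 3.27-fold lower in Brahman skin, with a 95% interval of -2.66 to -0.75. The unadjusted p of limma was 0.00229 and the p adjusted over all probe sets was 0.396, so the difference did not pass. Only 6 probe sets, 0.025%, passed between the naive breeds (4.78% at an unadjusted p of 0.05), and 7.21% had all Brahman arrays below all Holstein-Friesian arrays. These groups were 18 and 12 months old, so breed and age cannot be told apart.

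Among infested animals, which were all 6 months old, the highest Brahman array, 6.94 log2, was again below the lowest Holstein-Friesian array, 7.36 log2. The difference was -1.44 log2, or 2.71-fold lower in Brahman skin, with a 95% interval of -2.39 to -0.49. The unadjusted p of limma was 0.00679 and the adjusted p was 0.241, so it did not pass either. Here 40 probe sets, 0.167%, passed (13% at an unadjusted p of 0.05), and 4.16% had Brahman arrays wholly below Holstein-Friesian arrays. From high to low, the group means ran naive Holstein-Friesian, naive Brahman, infested Holstein-Friesian and infested Brahman, with no overlap between neighbours in that order.

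The naive breed contrast moved with the arrays that entered it and with muscle transcripts. It was -1.20 log2 without naive Brahman 2 and -2.19 log2 without naive Brahman 1, with adjusted limma p-values of 0.0943 to 1.00 over all left-out arrays. With weights for array quality it was -2.23 log2 and passed, with an adjusted limma p of 0.0162, in a fit in which 400 probe sets passed. The mean of 18 skeletal muscle genes was 6.05, 8.07 and 8.56 log2 in naive Brahman skin and 6.13, 6.89 and 6.52 log2 in naive Holstein-Friesian skin, whereas all infested arrays lay at 6.01 to 6.25 log2. The 2 naive Brahman arrays high in muscle transcripts were the 2 lowest naive arrays for PGLYRP1. With this mean as a covariate the breed difference was -1.15 log2 with an adjusted limma p of 0.9999.

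**Figure D2:**
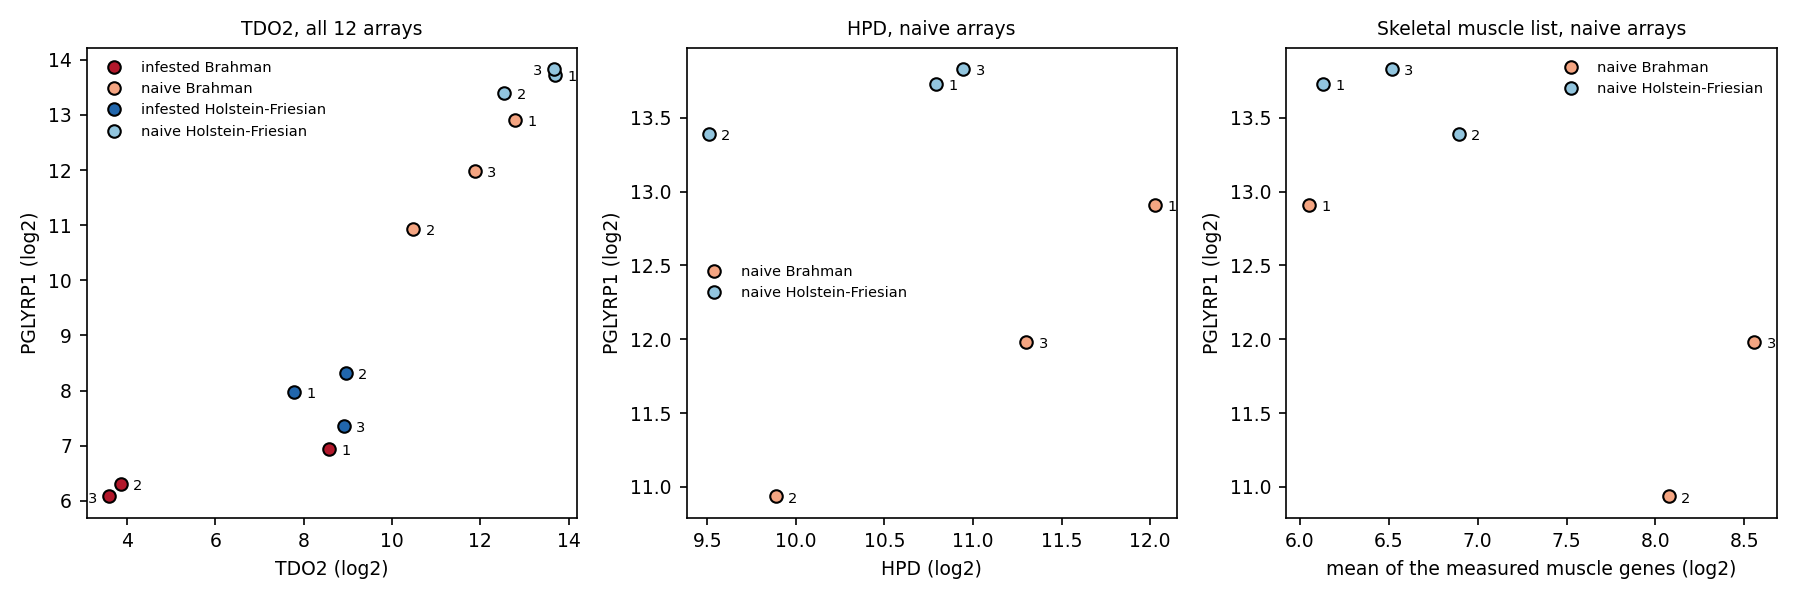
PGLYRP1 (log2) in each array against TDO2 (left, all 12 arrays), HPD (middle, naive arrays) and the mean of the measured skeletal muscle genes (right, naive arrays), with array numbers beside the points. TDO2 is high where PGLYRP1 is high. In both naive groups array 2 is the lowest for PGLYRP1, TDO2 and HPD. The naive Brahman arrays 2 and 3, highest in muscle transcripts, are the lowest naive arrays for PGLYRP1.

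Few other genes were lowered as much in both breeds. The 10 named genes with the largest smaller fall of the 2 breeds, in order, were PGLYRP1, TDO2, LOC534967, THBS1, GSTA2, HMGA1, HOXA9, THRSP, HPD and NQO1. TDO2 encodes tryptophan dioxygenase, the first enzyme of tryptophan breakdown to kynurenine. It read 8.58, 3.86 and 3.59 log2 in infested Brahman skin, against 12.79, 10.48 and 11.87 log2 in naive Brahman skin. It read 7.78, 8.96 and 8.91 log2 in infested Holstein-Friesian skin, against 13.69, 12.54 and 13.66 log2 in naive Holstein-Friesian skin. TDO2 was thus the nearest gene to PGLYRP1, with differences of -6.37 log2 in Brahman and -4.75 log2 in Holstein-Friesian skin.

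HPD, an enzyme of tyrosine breakdown, was at -4.88 log2 in Brahman and -2.37 log2 in Holstein-Friesian skin. NQO1, a quinone reductase, was at -2.86 and -2.34 log2. GSTA2, a glutathione transferase, was at -2.76 and -2.92 log2, but only 1 of its 5 probe sets was in the list. THRSP, a protein of fat synthesis, was at -2.78 and -2.38 log2. HMGA1, a chromatin protein, was at -3.01 and -2.70 log2, and HOXA9, a homeobox factor, at -2.39 and -4.23 log2. The gap between the lowest naive and the highest infested array was 1.66 log2 for HMGA1 and 1.52 log2 for TDO2, against 2.61 log2 for PGLYRP1. GSTA2 and HOXA9 had no gap, since infested Brahman 1 read above the lowest naive array for both. Leaving out 1 array moved 5 of these falls by more than 1.5-fold, all in Brahman skin. The fall of TDO2 was -7.99 log2 without infested Brahman 1 and -5.49 log2 without infested Brahman 3. That of HOXA9 was -3.86 log2 without infested Brahman 1 and -1.47 log2 without infested Brahman 2. Over left-out arrays HPD ran from -5.58 to -4.11, LOC534967 from -3.88 to -2.44 and GSTA2 from -3.30 to -1.94 log2, the ends being reached without infested Brahman 3 and 1, naive Brahman 2 and 1, and infested Brahman 1 and 3. THBS1, a matrix protein, was in the list by 1 of its 6 probe sets. These genes were picked by the size of their fall, so their values describe and test nothing.

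**Figure D3:**
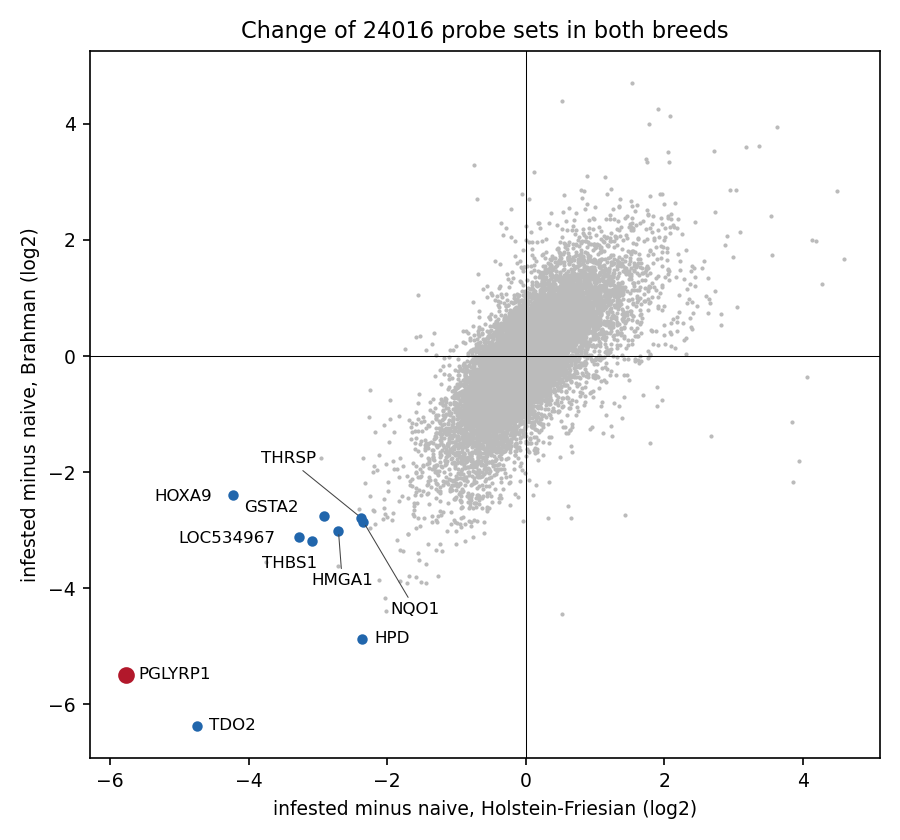
Infested minus naive difference (log2) of every probe set in Holstein-Friesian (horizontal) and Brahman (vertical) skin, with PGLYRP1 in red and the other 9 named genes of largest common fall in blue. PGLYRP1 and TDO2 lie apart at the lower left, beyond -4.5 on both axes.

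Among naive animals several of these genes differed along with PGLYRP1. Naive animal 2 was the lowest for PGLYRP1 in both breeds, although no label links these animals beyond their number. That order was found for 2519 of the other 24015 probe sets, or 10.5%. It was found for 6 of the 9 other genes of largest common fall, which were TDO2, LOC534967, HMGA1, THRSP, HPD and NQO1. After each breed's mean was taken off, the naive levels of LOC534967, NQO1, TDO2, HPD and THRSP correlated with PGLYRP1 at r of 0.96, 0.96, 0.95, 0.91 and 0.88 over 6 arrays. The rest of the 9 did not follow it, with r of 0.19 for HMGA1, 0.12 for GSTA2, -0.40 for HOXA9 and -0.70 for THBS1. These are descriptions over few arrays that share hybridisation and tissue make-up.

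None of the measured partners of PGLYRP1 passed as lower in infested skin. TREM1, the receptor that human PGLYRP1 activates on myeloid cells, read 4.81, 5.37 and 5.28 log2 in infested Brahman skin, against 4.94, 4.90 and 4.82 log2 in naive Brahman skin. It read 5.26, 5.66 and 5.39 log2 in infested Holstein-Friesian skin, against 4.89, 4.82 and 4.54 log2 in naive Holstein-Friesian skin. TREM1 was thus low everywhere. It rose by 0.69 log2 in Holstein-Friesian skin (adjusted limma p 0.0476) and differed by 0.27 log2 in Brahman skin (adjusted limma p 0.298). The Holstein-Friesian call was lost with the replicate number as a block (adjusted limma p 0.0561), and leaving out single arrays gave adjusted p-values of 0.0156 to 0.141.

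TYROBP, the signalling adaptor of TREM1 and of other myeloid receptors, read 9.64, 8.72 and 8.20 log2 in infested Brahman skin, against 7.70, 8.42 and 8.37 log2 in naive Brahman skin. It read 8.96, 9.42 and 8.56 log2 in infested Holstein-Friesian skin, against 7.13, 8.03 and 7.12 log2 in naive Holstein-Friesian skin. The Brahman groups overlapped. TYROBP rose by 1.55 log2 in Holstein-Friesian skin (adjusted limma p 0.0454, and 0.0144 to 0.157 without single arrays), and differed by 0.69 log2 in Brahman skin (adjusted limma p 0.229). Of 5 measured partners, 2 rose in Holstein-Friesian and 0 in Brahman skin, against 2.68% and 9.54% of all probe sets, and 0 fell, against 2.34% and 10.2%. TNFRSF1A, a receptor of tumour necrosis factor reported to bind PGLYRP1, the heat-shock protein HSPA1A and the calcium-binding protein S100A4 passed in neither breed. TNFRSF1A differed by 0.35 log2 in Brahman and -0.03 log2 in Holstein-Friesian skin. HSPA1A differed by -0.16 and 0.80 log2, and S100A4 by 0.20 and -0.17 log2. The 6 probe sets of HSPA1A ran from -1.05 to 0.22 log2 in Brahman and from -0.63 to 0.80 log2 in Holstein-Friesian skin.

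Among genes that sense bacterial products, CD14 and LBP rose and none fell. Of 12 measured genes, 2 rose in Brahman and 1 in Holstein-Friesian skin, and 0 fell in either, with medians of 0.15 and 0.20 log2 beside 0.04 and -0.03 log2 over all probe sets. The shares of all probe sets were 9.54% higher and 10.2% lower in Brahman skin, and 2.68% higher and 2.34% lower in Holstein-Friesian skin, and with 12 genes a count of 0 or 1 is near these. CD14, the co-receptor for lipopolysaccharide on myeloid cells, read 9.66, 9.14 and 9.76 log2 in infested Brahman skin, against 7.37, 8.29 and 8.43 log2 in naive Brahman skin. It read 9.89, 10.65 and 10.08 log2 in infested Holstein-Friesian skin, against 7.69, 8.47 and 7.79 log2 in naive Holstein-Friesian skin. CD14 rose by 1.49 log2 in Brahman (adjusted limma p 0.0107) and 2.22 log2 in Holstein-Friesian skin (adjusted limma p 0.00698). Its other probe set gave 0.58 and 1.43 log2. LBP, which hands lipopolysaccharide to CD14, rose by 0.67 log2 in Brahman skin (adjusted limma p 0.0277, and 0.00478 to 0.0865 without single arrays) and differed by 0.61 log2 in Holstein-Friesian skin (adjusted limma p 0.0811). The mean of LBP was only 4.80 log2 in infested and 4.13 log2 in naive Brahman skin, below the readings of TSPY. In the fit of only the 6 arrays compared its adjusted limma p in Brahman skin was 0.0932.

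PGLYRP1 is stored in neutrophil granules. No other measured granule gene passed as lower in infested skin. Of 21 measured granule genes, 2 rose and 0 fell in each breed, and the medians were 0.10 log2 in Brahman and -0.06 log2 in Holstein-Friesian skin. Of all probe sets 9.54% rose and 10.2% fell in Brahman skin, and 2.68% rose and 2.34% fell in Holstein-Friesian skin. The count that rose in Brahman skin was thus that of the background. With 21 genes a count of 0 that fell is also near these shares. BPI, which kills Gram-negative bacteria, rose by 0.53 log2 in Brahman (adjusted limma p 0.0396) and 0.65 log2 in Holstein-Friesian skin (adjusted limma p 0.0432). With the replicate block these p-values were 0.0539 and 0.0637, and without single arrays 0.0238 to 0.134 and 0.0272 to 0.137. ELANE, neutrophil elastase, rose by 0.68 log2 in Brahman skin (adjusted limma p 0.0150, and 0.0142 to 0.0648 without single arrays). In infested and naive Brahman skin the mean was only 4.68 and 4.01 log2 for ELANE and 5.62 and 5.09 log2 for BPI. These levels lay below the readings of TSPY, and the filter on the lowest 40% of mean signal left out both genes. In fits of only the 6 arrays compared the adjusted limma p was 0.0534 for ELANE in Brahman skin. For BPI it was 0.100 in Brahman and 0.0538 in Holstein-Friesian skin. MMP9, a gelatinase, rose by 1.14 log2 in Holstein-Friesian skin (adjusted limma p 0.0339, and 0.00985 to 0.123 without single arrays). MMP9 differed by 0.56 log2 in Brahman skin, where it was -0.05 log2 with the RNA index as a covariate.

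The mean level of the granule list overlapped between infested and naive skin in both breeds. Its mean over 21 genes was 6.76, 6.57 and 6.34 log2 in infested Brahman and 6.77, 6.59 and 6.32 log2 in naive Brahman skin. It was 6.71, 6.64 and 6.76 log2 in infested Holstein-Friesian and 6.83, 6.97 and 6.57 log2 in naive Holstein-Friesian skin. Of 10 neutrophil surface and oxidase genes, 0 passed in either breed in limma, and 1 in Brahman and 4 in Holstein-Friesian skin had an unadjusted p under 0.05, against 34.7% and 21.6% of all probe sets, with medians of 0.09 log2 in Brahman and 0.51 log2 in Holstein-Friesian skin.

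Eosinophils are the other granulocyte in which bovine PGLYRP1 was described. Of 6 measured eosinophil genes 1 rose in Holstein-Friesian and 0 in Brahman skin, against 2.68% and 9.54% of all probe sets. It was CCL26, a chemokine that attracts eosinophils, at 10.97, 11.74 and 10.18 log2 in infested and 8.50, 7.60 and 7.80 log2 in naive Holstein-Friesian skin. The rise was 3.00 log2 (adjusted limma p 0.0217, and 0.0147 to 0.0808 without single arrays). In Brahman skin CCL26 differed by 1.71 log2 (adjusted limma p 0.0633). Of 3 measured lysozyme genes, whose enzymes cut peptidoglycan, 0 passed in limma, against 19.8% of all probe sets in Brahman and 5.02% in Holstein-Friesian skin. At an unadjusted p under 0.05 there was 1, in Holstein-Friesian skin, against 21.6% of all probe sets.

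Epithelial antimicrobial genes gave 1 call among 13, in Brahman skin, where 10.2% of all probe sets fell. LPO, lactoperoxidase, fell by 3.11 log2 in Brahman skin (adjusted limma p 0.0401). It read 6.46, 6.17 and 5.88 log2 in infested Brahman skin, against 11.26, 6.41 and 10.17 log2 in naive Brahman skin. Naive Brahman 2 was close to the infested level, and the call was lost in 14 of 21 alternative settings, with adjusted p-values of 0.000718 to 0.139 without single arrays. In Holstein-Friesian skin LPO differed by -0.76 log2 (adjusted limma p 0.692).

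Genes of both gland lists fell in infested skin of both breeds, and other genes of these lists rose. Of 20 measured sebaceous and lipid-synthesis genes, 8 fell and 2 rose in Brahman skin, and 5 fell and 0 rose in Holstein-Friesian skin, with medians of -0.71 and -0.50 log2. Of all probe sets 10.2% fell and 9.54% rose in Brahman skin, and 2.34% fell and 2.68% rose in Holstein-Friesian skin, so the 2 that rose were near the background. THRSP fell by 2.78 log2 in Brahman (adjusted limma p 0.000921) and fell by 2.38 log2 in Holstein-Friesian skin (adjusted limma p 0.00693). ELOVL6, a fatty-acid elongase, fell by 2.17 log2 in Brahman (adjusted limma p 0.00271) and fell by 1.98 log2 in Holstein-Friesian skin (adjusted limma p 0.0148). PPARG, the regulator of fat-cell and sebocyte genes, differed by -2.001 and -1.504 log2, and ACACA, acetyl-CoA carboxylase, by -0.94 and -0.92 log2, and both passed in both breeds. In Holstein-Friesian skin the adjusted limma p without single arrays was 0.00964 to 0.127 for PPARG and 0.00469 to 0.0691 for ACACA, and 0.00584 to 0.0689 for ELOVL6. Fat cells use the same genes, so this list does not single out sebocytes.

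Of 19 measured sweat-gland and glandular epithelium genes, 6 fell and 4 rose in Brahman skin, and 6 fell and 2 rose in Holstein-Friesian skin, with medians of -0.29 and -0.08 log2, beside the same shares of 10.2% lower and 9.54% higher in Brahman and 2.34% and 2.68% in Holstein-Friesian skin. AZGP1, a secreted zinc-binding glycoprotein, read 8.84, 9.01 and 8.72 log2 in infested Brahman skin, against 11.99, 11.14 and 11.92 log2 in naive Brahman skin. It read 9.83, 9.004 and 9.88 log2 in infested Holstein-Friesian skin, against 11.72, 11.16 and 11.65 log2 in naive Holstein-Friesian skin. AZGP1 therefore read higher in every naive than in every infested array, as PGLYRP1 did, but its breeds overlapped within each state. It fell by 2.83 log2 in Brahman (adjusted limma p 0.000374) and fell by 1.94 log2 in Holstein-Friesian skin (adjusted limma p 0.00698). KRT7 and KRT18, keratins of simple and glandular epithelium, passed in both breeds, with differences of -2.08 and -2.34 log2 in Brahman skin and -1.83 and -1.58 log2 in Holstein-Friesian skin. SPDEF, a transcription factor of secretory epithelium, fell by 2.06 log2 in Brahman and fell by 1.71 log2 in Holstein-Friesian skin. Without single arrays the adjusted limma p in Holstein-Friesian skin was 0.0106 to 0.0754 for SPDEF and 0.0139 to 0.101 for KRT18. The genes named here had the smallest adjusted p of the list, and none of those that rose is among them. ELF5, of the same list, differed by 1.54 log2 in Brahman and 0.96 log2 in Holstein-Friesian skin.

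**Figure D4:**
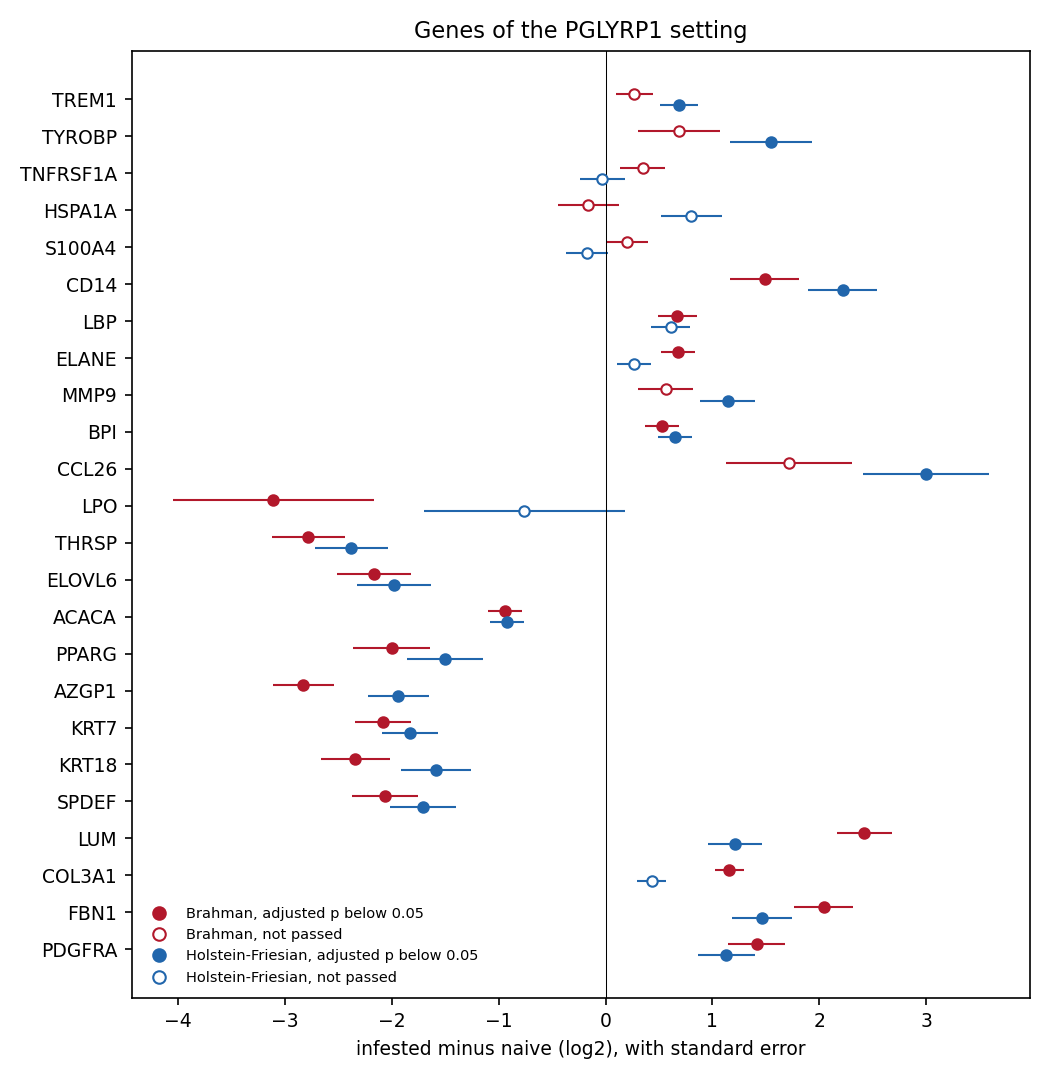
Infested minus naive difference (log2, with the standard error) of the named genes of the partner, bacterial sensing, granulocyte, antimicrobial, gland and fibroblast lists, in Brahman (red, upper point) and Holstein-Friesian skin (blue, lower point). Filled points passed an adjusted p of 0.05 in limma. The myeloid and fibroblast genes lie mostly right of 0, and THRSP, ELOVL6, ACACA, PPARG, AZGP1, KRT7, KRT18 and SPDEF lie left of 0 in both breeds.

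Some of the glandular epithelium genes also differed along with PGLYRP1 among naive animals. AZGP1, KRT7, KRT18 and SPDEF had been named for their infested-minus-naive change, and KRT19, CLDN3, KIT and SLC12A2 after their values were seen. KRT7, KRT18, KRT19, AZGP1, CLDN3 and SPDEF, 6 of the 19 genes of that list or 31.6%, were lowest in animal 2 of both naive groups, against 10.5% of all probe sets. In the sebaceous list these were 2 of 20 genes or 10%, near the share over all probe sets. With breed means taken off, KRT18, AZGP1, KRT7, KRT19, SPDEF and CLDN3 correlated with PGLYRP1 at r of 0.89, 0.86, 0.84, 0.83, 0.78 and 0.60 over the 6 naive arrays. These genes share the animal order of PGLYRP1, so a high r partly follows from that. Other genes of the list went the other way, such as KIT at -0.91 and SLC12A2 at -0.41. The median r of the 19 genes was 0.42, that of the 20 sebaceous genes was -0.19, that of the 18 muscle genes was -0.68 and that of all probe sets was 0.01. Among infested animals the same r were -0.63 for KRT19, -0.54 for AZGP1, -0.34 for CLDN3, -0.19 for KRT18, -0.0046 for KRT7 and 0.29 for SPDEF. The part of gland and muscle transcripts in the level of PGLYRP1 was not tested.

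No measured gene of the epidermis, hair follicle or fibroblast lists fell with PGLYRP1. Of 8 measured epidermal genes 0 passed in either breed in limma (0 in Brahman and 1 in Holstein-Friesian skin at an unadjusted p under 0.05), with medians of -0.12 log2 in Brahman and -0.02 log2 in Holstein-Friesian skin. Of 5 hair follicle genes 0 passed (3 and 2 at an unadjusted p under 0.05). Of 11 fibroblast genes, 7 rose in Brahman and 3 in Holstein-Friesian skin, against 9.54% and 2.68% of all probe sets, and 0 fell, against 10.2% and 2.34%. LUM, a proteoglycan of the dermis, rose by 2.42 log2 in Brahman (adjusted limma p 0.000467) and 1.21 log2 in Holstein-Friesian skin (adjusted limma p 0.0255, and 0.0176 to 0.103 without single arrays). FBN1, the microfibril protein fibrillin, rose by 2.04 and 1.46 log2, the second with an adjusted limma p of 0.0110 to 0.0844 without single arrays. PDGFRA, a growth-factor receptor of fibroblasts, rose by 1.42 and 1.13 log2, the second with an adjusted limma p of 0.0548 under the replicate block and 0.0149 to 0.143 without single arrays. These were the highest values of its 3 probe sets, of which the lowest were 0.27 log2 in Brahman and 0.07 log2 in Holstein-Friesian skin. COL3A1, a fibrillar collagen, rose by 1.16 log2 in Brahman skin and differed by 0.43 log2 in Holstein-Friesian skin. Of 18 muscle genes, 5 fell and 1 rose in Brahman skin, against 10.2% and 9.54% of all probe sets, with a median of -1.46 log2. In Holstein-Friesian skin 0 muscle genes passed in limma, and 1 had an unadjusted p under 0.05.

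Over the 133 genes of all lists other than the muscle and Y-chromosome lists, 32 passed in Brahman skin (17 higher, 15 lower), against 19.8% of all probe sets. In Holstein-Friesian skin 22 passed (11 higher, 11 lower), against 5.02% of all probe sets. In Brahman skin CD14, THRSP, ELOVL6, AZGP1, KRT7, KRT18, SPDEF, LUM, COL3A1 and FBN1 passed in all 21 alternative settings. In Holstein-Friesian skin CD14, THRSP, AZGP1 and KRT7 did. With the RNA index as a covariate the Brahman calls of LBP, ELANE, BPI, LPO, ACACA, PPARG and PDGFRA were lost. None of the 24 named list genes differed between the breeds in its infested-minus-naive change, the lowest adjusted limma p being 0.498, and 0 of these 133 genes passed in limma between the breeds in either state. At an unadjusted p under 0.05 there were 17 among infested animals, against 13% of all probe sets, and 9 among naive animals, against 4.78%. Of the 18 muscle genes 0 passed between the breeds in either state in limma, and 0 among infested and 5 among naive animals had an unadjusted p under 0.05.

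Likeness over the 6 naive arrays was led by genes of varied roles. Among 7430 probe sets that varied by an SD of at least 0.25 log2 there, 89, or 1.2%, had a Pearson r above 0.9 with PGLYRP1, and 142, or 1.91%, had an r below -0.9. The highest r were those of the kinase RIOK3, the mitochondrial deacetylase SIRT3, the prostaglandin D synthase PTGDS and the intraflagellar transport protein IFTAP, all 0.98, and of TDO2, at 0.97. The other 2 probe sets of RIOK3 had r of -0.74 and -0.49, so its likeness was that of 1 probe set. PTGDS ranged over 9.27 to 10.76 log2 in naive skin and differed by -1.69 log2 in Brahman and -1.34 log2 in Holstein-Friesian skin, so that it was lower in infested skin as well. The lowest r were those of TMEM86A and EPS8L3, both -0.98, and of MOCS1, IL1R1 and MANEA, all -0.97. The other probe set of MOCS1 had an r of -0.46, and that of SIRT3 an r of 0.79. IL1R1, the receptor of interleukin-1, was 8.07 to 8.87 log2 in naive skin. The arrays also differ by breed, and after breed means were taken off TDO2 had an r of 0.95 and PTGDS of 0.94.

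Over the 6 infested arrays different genes led. Of 14678 probe sets that varied as much there, 65, or 0.443%, had an r above 0.9 and 84, or 0.572%, had an r below -0.9. The highest r were those of the RNA helicase DDX17 (0.99), MZB1 (0.98), IGCGAMMA (0.98), ADM (0.98) and MBD1 (0.97). MZB1 is made by plasma cells, IGCGAMMA is the immunoglobulin gamma constant region, and ADM is the vasodilator peptide adrenomedullin. MZB1 read 6.68, 5.36 and 5.47 log2 in infested Brahman and 7.76, 8.25 and 7.33 log2 in infested Holstein-Friesian skin. The other probe set of DDX17 had an r of -0.63. The lowest r were those of COL5A2 and CSN2 (-0.99) and of CRTC1, ELF5 and WIPI1 (-0.98). Other probe sets had r of -0.30 to 0.16 for CSN2, -0.63 to -0.34 for CRTC1 and 0.15 to 0.78 for MBD1. COL5A2, a fibrillar collagen chain, ranged over 8.75 to 10.36 log2, and ELF5, a factor of glandular epithelium, over 9.72 to 11.33 log2. Both were higher in infested Brahman than in infested Holstein-Friesian skin in every array. PGLYRP1 itself did not overlap between these groups, so genes picked by their r tend to separate the breeds through the pick. After breed means were taken off, r over the infested arrays was 0.92 for MZB1, -0.98 for COL5A2 and -0.92 for ELF5.

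Few genes were like PGLYRP1 in both states. Only 2 probe sets had an r above 0.9 in both, and the 5 genes with the highest smaller r were TMC6 (0.94 in infested, 0.95 in naive skin), SYT4 (0.94, 0.91), PRIMPOL (0.87, 0.89), H2BC19 (0.86, 0.92) and PON3 (0.91, 0.85). PON3, a paraoxonase, read 6.08, 5.83 and 6.14 log2 in naive Brahman and 11.17, 10.04 and 10.92 log2 in naive Holstein-Friesian skin. Its naive r was 0.40 after breed means were taken off. That of TMC6, SYT4, H2BC19 and PRIMPOL was then 0.91, 0.75, 0.73 and 0.67. Without the 2 naive arrays farthest from the median of PGLYRP1, r was 0.65, 0.34, 0.53 and 0.83 for these 4 and 0.96 for PON3. The other probe set of TMC6 had an r of -0.49 in naive skin, and that of SYT4 an r of 0.66. TDO2, the gene nearest to PGLYRP1 in its fall, had an r of 0.82 in infested skin.

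The fall of PGLYRP1 was not shared to its size by the genes around it. In the RefSeq gene table of assembly ARS-UCD2.0, used for gene order, the nearest genes with a probe set were SIX5, SYMPK and FOXA3 on one side and PPP5C, CCDC8 and CALM3 on the other, 5 to 16 genes away. SYMPK, FOXA3 and CCDC8 passed in neither breed. In Brahman skin SIX5, a homeobox factor, fell by 0.83 log2 (adjusted limma p 0.0239), PPP5C, a protein phosphatase, fell by 1.29 log2 (adjusted limma p 0.0209) and CALM3, a calmodulin gene, fell by 1.10 log2 (adjusted limma p 0.0386). With the RNA index as a covariate these 3 calls were lost, at -1.02 log2 for SIX5, -0.37 log2 for PPP5C and -0.35 log2 for CALM3. In Holstein-Friesian skin SIX5, PPP5C and CALM3 differed by -0.81, -1.10 and -1.10 log2 and did not pass. There all 3 passed with the index as a covariate (adjusted limma p 0.0426, 0.0238 and 0.0481), with array weights, and without the 2 arrays of lowest index.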

How the data were processed

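Each of 12 skin biopsies was measured on 1 array. The authors deposited 1 log2 value per probe set and array. Per the submitters' processing notes these were made with RMA, a method that summarises the probes of a set after background correction and quantile normalization. Which program and chip definition ran it is not given in the sources used here. That the scale is log2 was read from the values. Levels are relative to the other transcripts of an array. The deposited table held 24128 probe sets, of which 112 controls were left out. Gene names came from the platform annotation: 13292 of 24016 probe sets had 1 symbol, 86 had several and were not named, and 10638 had none. The gene ID of 13263 was found in the RefSeq table (ARS-UCD2.0), from which only names and gene order were taken. Detection calls were not used here, and precision is limited by the number of arrays.

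Group means of all 12 arrays were fitted together with lmFit and eBayes of limma 3.58.1 in R 4.3.3 (8 residual and 3.03 prior degrees of freedom), with two-sided p-values adjusted by Benjamini-Hochberg over 24016 probe sets within each comparison and a threshold of 0.05. The model was tested on simulated data. A gene of a list was represented by its probe set of highest mean. Likeness was Pearson's r within the 6 naive and within the 6 infested arrays, among probe sets with an SD of at least 0.25 log2, with no p. Named genes were PGLYRP1 and its partners, up to 4 genes per list with the smallest adjusted p among those that passed, the 5 highest and 5 lowest r in each state and the 5 highest in both, the 10 largest common falls and 3 neighbours on each side. KRT19, CLDN3, KIT, SLC12A2, TSPY and ZFY were named after their values were seen.

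PGLYRP1 and the gene lists were chosen with earlier results of these data known. The muscle and Y-chromosome lists, the muscle covariate and the breed-mean deviations were added after the data had been seen. Replicates were separate animals, and no 2 arrays shared more than 0.104% of their values. Same-numbered infested and naive Holstein-Friesian animals deviated together (correlations of 0.224, 0.249 and 0.113), which no label explains. Same-numbered naive animals of both breeds also had correlations above 0 (0.328, 0.022 and 0.203), which no label explains either. The remaining pairs of groups each held a negative correlation (infested and naive Brahman, -0.189 to -0.053). A fit with the replicate number as a block was therefore an alternative, beside cyclic loess, median centring, a filter on the lowest 40% of mean signal, a robust trended prior, fits of the 6 arrays compared, array weights, the RNA index as covariate or without its 2 lowest arrays, mean probe sets and leaving out each array.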

Additional observations from a re-analysis of the deposited data

How the results depend on the processing

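PGLYRP1 stayed lower in infested skin of both breeds in every setting run, at -6.00 to -5.01 log2 in Brahman and -5.99 to -5.50 log2 in Holstein-Friesian skin over all of them, and its rank within each array moved little under cyclic loess. The breed difference of these changes ran from -0.24 to 0.75 log2 over left-out arrays. Between naive breeds it was -2.19 to -1.20 log2 over left-out arrays, and it passed only with array weights, at -2.23 log2 (adjusted limma p 0.0162). Those weights ran from 0.187 for infested Brahman 1 to 3.72 for naive Brahman 2. Between infested breeds it was -1.70 to -1.22 log2. With the replicate block the adjusted limma p was 0.397 between naive and 0.187 between infested breeds, and 18 list genes passed in Holstein-Friesian and 32 in Brahman skin. Beside the calls named with it above, CALM3 passed in Holstein-Friesian skin (adjusted limma p 0.0395) with the block, and no other named call changed with it.

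The number of list genes that passed in Holstein-Friesian skin (22) depended on the arrays. It was 44 with array weights and 39 without the 2 arrays of lowest index, and 4 to 35 over left-out arrays, with 4, 10 and 8 without naive Holstein-Friesian 1, 2 and 3, 10 and 7 without infested Holstein-Friesian 2 and 3, and 35 without infested Brahman 1. In Brahman skin (32) it was 49 with array weights and 24 to 39 over left-out arrays. Over all probe sets the counts of 1206 in Holstein-Friesian and 4753 in Brahman skin became 4589 and 7657 with array weights and 2022 and 1808 with the index as a covariate. Signs that turned were those of differences that had not passed. TNFRSF1A in Holstein-Friesian skin was 0.017 log2 with median centring and -0.22 to 0.16 log2 over left-out arrays, above 0 when infested Holstein-Friesian 3 or naive Holstein-Friesian 2 was left out. In Brahman skin HSPA1A was 0.044 and MMP9 -0.046 log2 with the index as a covariate (MMP9 was 0.56 log2 without it), and CCDC8 was -0.0011 to 0.72 log2 over left-out arrays, the lowest without infested Brahman 3. The cause was not tested. Of the 20 genes most like PGLYRP1 in 1 state, the r stayed beyond 0.9 for 17 by Spearman's rho, 20 with centring, 19 after breed means were taken off and 20 without each array. These genes had been picked by their r on the same arrays, so the counts are no independent support. Without the 2 naive arrays farthest from the median of PGLYRP1, r was 0.78 for TDO2, 0.79 for IFTAP, -0.86 for TMEM86A and -0.74 for MOCS1. For the rest of the 20, r stayed beyond 0.9 when the 2 farthest arrays of their state were left out.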
